A study of Mus musculus with 4 samples.

Results

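Mast cell and basophil proteases are the enzymes stored in the granules of these cells, and 9 of their genes were chosen by name, each read from its probe set of highest mean value, out of 19938 genes on the array that had a single gene symbol. All 9 were measured and each had 1 probe set, so the choice of probe set decided nothing. The values come from leukemia stem cells of mice with transplanted chronic myeloid leukemia. Marrow of donors treated with 5-fluorouracil was transduced with a BCR-ABL/GFP retrovirus, BCR-ABL being the oncogenic kinase of this leukemia, and transplanted into C57BL/6 recipients. There were 2 Hif1a-/- samples, whose donor marrow lacked Hif1a, which encodes the HIF-1 subunit that is degraded when oxygen is plentiful, and 2 WT samples from C57BL/6 donors, and the labels give C57BL/6 (B6) as the strain and 8 weeks as the age in both groups. Both groups carried BCR-ABL and were sorted at 14 days from the recipients' marrow by the gate GFP+, Lin-, c-Kit+ and Sca-1+. How and in which cells the Hif1a allele was deleted, and whether animals were pooled, was not given in the sources used here. Since the labels call the samples biological replicates without naming separate animals, the p-values measure the spread between these samples only.

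Mast cell granules hold chymases and tryptases, which are serine proteases, and a carboxypeptidase, all bound to the proteoglycan serglycin and released when the cell is activated. In mice, connective tissue mast cells are known for the chymases Mcpt4 and Cma1, the tryptases Tpsb2 and Tpsab1 and the carboxypeptidase Cpa3, mucosal mast cells for the chymases Mcpt1 and Mcpt2, and basophils for Mcpt8 and Prss34. Mast cells and their progenitors carry c-Kit, the receptor that also served in the sorting gate. In sorted bulk RNA, fewer cells of a type and less RNA per cell cannot be told apart.

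Expression was given as log2 values after RMA, a method that corrects background, equalizes the arrays and summarises the probes of a set. The medians of the arrays over all genes lay between 8.53 and 8.57. Hif1a itself read 11.25 and 11.39 in Hif1a-/- cells, against 11.34 and 11.50 in WT cells, a range in which the groups overlapped. Which part of the gene was removed is not given, and probes outside that part would still bind, so this value checks the labels little. The arrays also differed from each other in sex-linked and in neutrophil genes. Hif1a-/- replicate 2 read Xist, the RNA of the inactive X chromosome, at 11.56, against 6.68 on Hif1a-/- replicate 1 and 7.12 and 7.76 on the WT arrays, and read the Y-linked gene Eif2s3y at 7.89, against 10.18 on Hif1a-/- replicate 1 and 9.99 and 10.15 on the WT arrays. WT replicate 1 read all 10 mature neutrophil genes of a fixed list higher than WT replicate 2, by a median of 2.0 on the log2 scale. With each gene centred on its own mean, their median was 0.96 on WT replicate 1 and -1.02 on WT replicate 2. It was -0.014 and -0.083 on the Hif1a-/- arrays, so the WT arrays lay on either side of these. Each protease is therefore given for every array, so that its difference can be read with and without each of these samples. Kit, the gate's own receptor, read 10.95 and 10.61 in Hif1a-/- cells, against 10.32 and 11.07 in WT cells. RMA values have no zero, so no marker can be called absent.

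All 9 proteases had a lower mean in Hif1a-/- cells, where 38.6% of all genes had a lower and 61.4% a higher one, but the size ran from near nothing in the basophil proteases to about 3.10-fold in Mcpt2. In 5 of the 9, each Hif1a-/- array read lower than each WT array, an order shown by 9.05% of all genes, and in 0 both lay above, an order shown by 15.7%. The median difference over the 9 was -0.85 on the log2 scale, against 0.034 over all genes. A difference of -1 or lower was found in 3 of the 9 and in 10 of 19938 genes (0.0502%), and one of -0.5 or lower in 6 of the 9, against 0.597% of all genes. Without Hif1a-/- replicate 2, the array with high Xist, 8 of the 9 lay below both WT arrays and the median was -1.30, and without WT replicate 1, the array with high neutrophil genes, the count was 7 and the median -1.13. Leaving out the other arrays brought the median nearer to 0. It was -0.35 with a count of 5 without Hif1a-/- replicate 1. Without WT replicate 2, the array with low neutrophil genes, it was -0.50 with a count of 7. Leaving out an array can only keep or raise such a count, and the share of 9.05% holds only with every array in. No share of all genes was worked out with an array left out, so those counts cannot be set against all genes. With every array in but the array medians centred, the count was 7, also without a share of all genes. The genes were named as a family with these differences already known, so the counts describe them and test nothing. In the limma fit over all genes, 0 genes passed an adjusted p of 0.05 (0%), while 334 had an unadjusted p under 0.05 (1.68%), among them 4 of the 9 proteases, all lower (0.978% of all genes in that direction). With 2 arrays a group, the smallest two-sided p of an exact permutation test is 0.333.

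**Figure D1:**
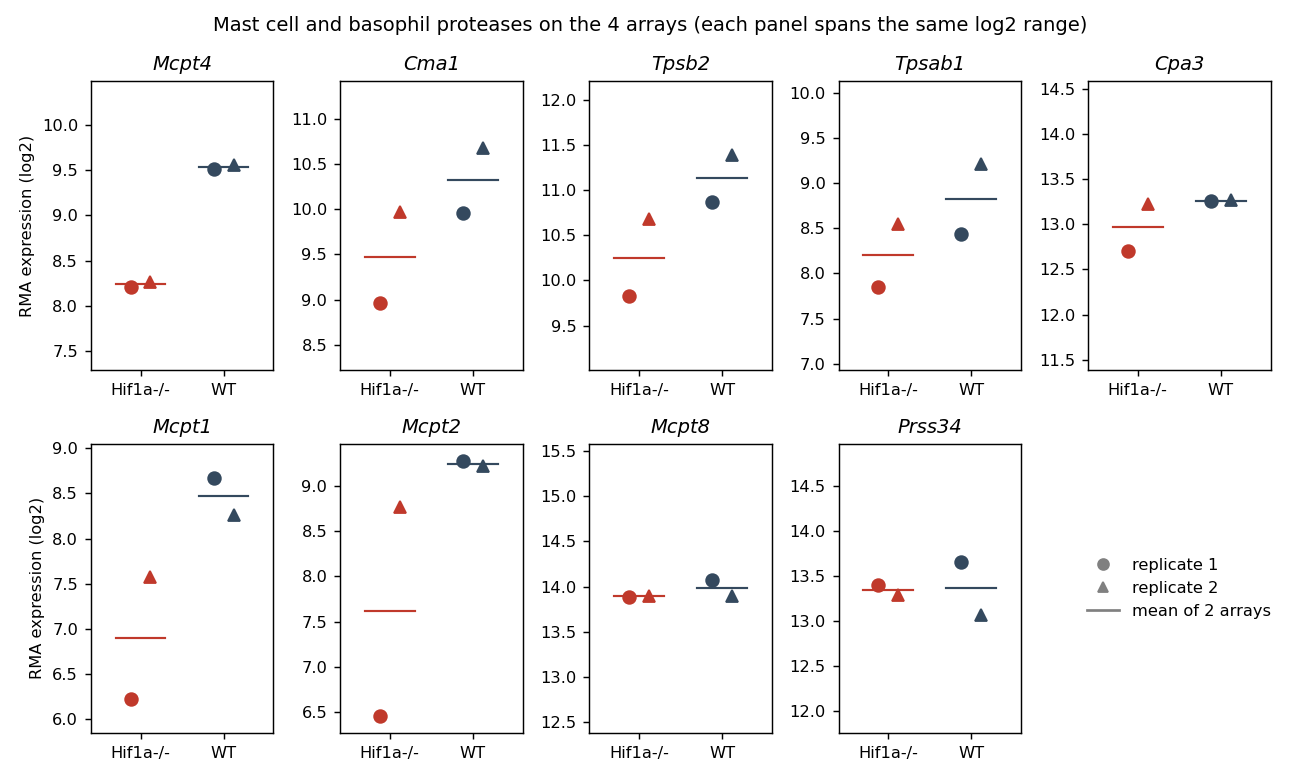
RMA expression (log2) of the 9 proteases on each array, with Hif1a-/- in red and WT in blue, circles for replicate 1, triangles for replicate 2 and lines for the mean of 2 arrays. Mcpt4 separates the groups with little spread inside them, Mcpt1 and Mcpt2 are lowest on Hif1a-/- replicate 1, and Mcpt8 and Prss34 overlap.

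Of the connective tissue chymases, Mcpt4, the closest functional counterpart of human chymase, read 8.21 and 8.26 in Hif1a-/- cells, against 9.52 and 9.56 in WT cells. Both pairs of replicates lay within 0.05 of each other and the groups were far apart, so no single array set this difference. It was -1.30 ± 0.12 (SE) on the log2 scale, a 2.47-fold lower level in Hif1a-/- cells, with a 95% interval from -1.59 to -1.01. Its unadjusted limma p of 2.27e-05 ranked 1 of 19938 genes, and its adjusted limma p was 0.239. With Hif1a-/- replicate 1 or Hif1a-/- replicate 2 alone against the WT mean the difference was -1.33 and -1.28.

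Cma1, the other chymase of connective tissue mast cells, read 8.96 and 9.97 in Hif1a-/- cells, against 9.96 and 10.68 in WT cells. Hif1a-/- replicate 1 was the low array, and Hif1a-/- replicate 2 and WT replicate 1 read nearly alike, so the groups overlapped. The difference was -0.85 ± 0.36 (SE), with a 95% interval from -1.73 to 0.024 and an adjusted limma p of 0.999. It was -1.36 for Hif1a-/- replicate 1 and -0.35 for Hif1a-/- replicate 2 against the WT mean.

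The tryptases, like Cma1, were lowest on Hif1a-/- replicate 1 and highest on WT replicate 2. Tpsb2, the main tryptase of mouse mast cells, read 9.82 and 10.68 in Hif1a-/- cells, against 10.87 and 11.39 in WT cells, with groups that did not overlap. Its difference was -0.87 ± 0.30 (SE), a 1.83-fold lower level, with a 95% interval from -1.60 to -0.15 and an adjusted limma p of 0.999. Without Hif1a-/- replicate 1 the difference was -0.45, and without Hif1a-/- replicate 2 it was -1.30. Tpsab1, annotated by RefSeq on the C57BL/6J assembly as a transcribed pseudogene, read 7.85 and 8.55 in Hif1a-/- cells, against 8.43 and 9.21 in WT cells. These groups overlapped, and the difference was -0.62 ± 0.31 (SE), with a 95% interval from -1.38 to 0.13. It was -0.97 for Hif1a-/- replicate 1 and -0.27 for Hif1a-/- replicate 2 against the WT mean. For Cma1, Tpsb2 and Tpsab1, replicate 1 was the lower array in both genotypes, by between 0.52 and 0.78 in WT cells and by between 0.70 and 1.01 in Hif1a-/- cells. Paralogs within the tryptases, or within the chymases, can be alike in sequence. Probes that bind more than 1 gene of such a family would couple their values, which was not tested.

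Cpa3, the carboxypeptidase shared by mast cells and basophils, read 12.71 and 13.22 in Hif1a-/- cells, against 13.26 on both WT arrays. The groups did not overlap, but Hif1a-/- replicate 2 lay just below the WT pair and only Hif1a-/- replicate 1 was clearly lower. The difference of -0.30 ± 0.19 (SE), a 1.23-fold lower level, had a 95% interval from -0.75 to 0.15 and was -0.038 without Hif1a-/- replicate 1.

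The chymases of mucosal mast cells had the largest mean differences of the family and also the widest spread between the Hif1a-/- arrays. Mcpt1 read 6.23 and 7.57 in Hif1a-/- cells, against 8.67 and 8.27 in WT cells. Mcpt2 read 6.46 and 8.77 in Hif1a-/- cells, against 9.28 and 9.22 in WT cells. In both genes the groups did not overlap, and Hif1a-/- replicate 1 was the lowest array by a wide margin. The difference was -1.57 ± 0.41 (SE) for Mcpt1, a 2.97-fold lower level with a 95% interval from -2.55 to -0.59, and -1.63 ± 0.65 (SE) for Mcpt2, a 3.10-fold lower level with a 95% interval from -3.20 to -0.062. Ordered by difference from the lowest, Mcpt2, Mcpt1 and Mcpt4 ranked 1, 3 and 4 of 19938 genes, while both mucosal chymases had an adjusted limma p of 0.999. Both probe sets were dim on Hif1a-/- replicate 1, below the 25th percentile of mean expression over all genes, 7.49, where RMA draws differences together, so these folds and ranks are uncertain. Against the WT mean, Hif1a-/- replicate 1 differed by -2.24 and Hif1a-/- replicate 2 by -0.90 in Mcpt1. In Mcpt2 these differences were -2.79 and -0.48.

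The basophil proteases did not separate the genotypes. Mcpt8, a granzyme-like serine protease of basophils, read 13.89 and 13.90 in Hif1a-/- cells, against 14.08 and 13.90 in WT cells. Prss34, a tryptase-like protease of basophils, read 13.39 and 13.29 in Hif1a-/- cells, against 13.65 and 13.07 in WT cells. The Hif1a-/- values lay close to WT replicate 2 in Mcpt8 and between the WT values in Prss34, and the WT arrays differed more from each other than the genotypes did. The difference was -0.093 ± 0.13 (SE) for Mcpt8, with a 95% interval from -0.40 to 0.22, and -0.020 ± 0.20 (SE) for Prss34, with a 95% interval from -0.51 to 0.47. The interval of Mcpt4 shares no value with either of these intervals, but the contrast between mast cell and basophil proteases was seen in these same values and was not tested.

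**Figure D2:**
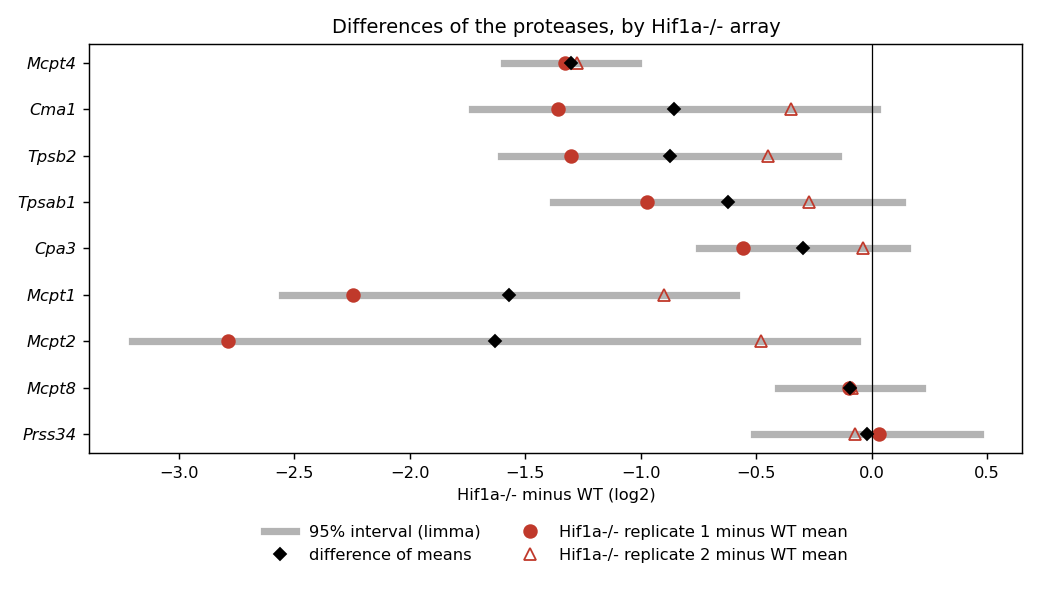
Differences of each protease (log2, Hif1a-/- minus WT), with the mean difference as a black diamond, limma's 95% interval as a grey bar, and Hif1a-/- replicate 1 (filled circle) and replicate 2 (open triangle) each set against the WT mean. Both arrays coincide for Mcpt4 at -1.33 and -1.28, while for Mcpt2 they lie at -2.79 and -0.48.

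The Hif1a-/- arrays differed from each other in how low the family read. Replicate 1 was the lower Hif1a-/- array in 8 of the 9 proteases, all but Prss34, where 50.4% of all genes had this order. Against the WT mean, the median over the 9 was -1.30 on Hif1a-/- replicate 1 and -0.35 on Hif1a-/- replicate 2, and over all genes it was 0.032 and 0.034. Replicate 1 lay below both WT arrays in 8 proteases and replicate 2 in 5. The share of all genes with either order was not worked out, so these counts only compare the Hif1a-/- arrays with each other. The median gap between arrays of a genotype was 0.70 in Hif1a-/- cells and 0.41 in WT cells for the 9, against 0.11 in Hif1a-/- cells and 0.19 in WT cells for all genes. Single proteases lay on either side of these medians, and the gaps of Mcpt4 and Mcpt8 were below the median of all genes in both genotypes. The array that read the proteases higher, Hif1a-/- replicate 2, is the array with the high Xist value, and the part of sex in this gap was not tested.

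To show what lies upstream of these genes, promoters were taken from RefSeq (GRCm38.p6), whose table held 6 of the 9 genes: Mcpt1, Mcpt4, Cma1, Mcpt8, Cpa3 and Prss34. The 250 bases before the start of 4 of them are printed 5′ to 3′ on the gene's strand. Mcpt4 and Mcpt1 are shown as the pair with the most alike promoters, Cpa3 as the gene shared by mast cells and basophils, and Mcpt8 as a basophil gene of the same locus that did not separate the genotypes. Capitals mark GATAA or its reverse complement TTATC, the core letters bound by GATA factors. Mcpt4 lies at chr14:56062311-56062560 (minus strand), Mcpt1 at chr14:56017714-56017963 (plus strand), Cpa3 at chr3:20242182-20242431 (minus strand) and Mcpt8 at chr14:56085198-56085447 (minus strand).
Mcpt4: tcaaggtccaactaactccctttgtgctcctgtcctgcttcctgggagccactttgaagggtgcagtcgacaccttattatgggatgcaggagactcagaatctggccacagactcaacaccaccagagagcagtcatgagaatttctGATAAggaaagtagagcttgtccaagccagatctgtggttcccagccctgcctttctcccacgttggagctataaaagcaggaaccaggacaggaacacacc
Mcpt1: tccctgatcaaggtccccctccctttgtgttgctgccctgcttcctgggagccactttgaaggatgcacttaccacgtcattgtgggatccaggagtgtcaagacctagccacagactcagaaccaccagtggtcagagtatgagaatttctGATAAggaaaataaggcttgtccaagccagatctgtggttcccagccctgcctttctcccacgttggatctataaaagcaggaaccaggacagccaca
Cpa3: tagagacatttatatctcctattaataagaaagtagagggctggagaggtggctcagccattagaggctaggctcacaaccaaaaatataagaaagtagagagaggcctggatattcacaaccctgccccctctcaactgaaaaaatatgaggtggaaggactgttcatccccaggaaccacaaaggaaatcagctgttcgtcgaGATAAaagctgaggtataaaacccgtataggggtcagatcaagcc
Mcpt8: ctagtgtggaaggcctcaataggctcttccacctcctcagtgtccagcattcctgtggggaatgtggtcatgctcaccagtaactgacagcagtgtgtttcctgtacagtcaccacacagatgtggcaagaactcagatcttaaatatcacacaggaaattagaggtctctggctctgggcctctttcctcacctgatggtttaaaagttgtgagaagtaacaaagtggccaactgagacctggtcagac

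The Mcpt4 and Mcpt1 promoters were identical at 81.0% of aligned positions, gaps counted, and shared an unbroken run of 53 bases, whereas the other 14 pairs among the 6 genes lay between 45.0% and 50.4%, with runs of at most 10 bases. GATAA was found on either strand in 5 of the 6 promoters, all but that of Mcpt8, against 22.6% of 32851 mouse promoters of the same length. It began at base -102 from the start in Mcpt4 and at base -98 in Mcpt1, ahead of the shared run of 53 bases. The letters ACGTG, the core of the hypoxia response element bound by HIF-1, were found on either strand in Mcpt4 and Mcpt1 and in none of the other 4, against 16.6% of all promoters. In both genes these letters lay on the opposite strand in front of the TATA box, beginning at base -43 in Mcpt4 and -39 in Mcpt1. That match lies inside the shared run of 53 bases, so both genes hold it as part of the same sequence. Mcpt1 held another match at base -177. TATAAA on the gene's strand was found in Mcpt4, Mcpt1 and Cpa3, against 7.59% of all promoters. The looser E-box CANNTG was found in the other 4 promoters, against 66.2% of all, and no match of 1 of these motifs overlapped a match of another. These matches describe the letters of the windows and show no binding.

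The genes of the chymases and of Mcpt8 lie side by side on chromosome 14, ahead of cathepsin G and the granzymes, and the tryptases lie together on chromosome 17, and the differences changed along both clusters. On chromosome 14, the 4 measured genes at one end, Cma1, Mcpt1, Mcpt2 and Mcpt4, differed by between -1.63 and -0.85, and the next measured genes, Mcpt8 and Ctsg, by -0.093 and 0.14. Ctsg, a protease of neutrophil precursors, read 13.28 and 13.36 in Hif1a-/- cells, against 13.02 and 13.34 in WT cells. Of the 7 measured granzymes behind it, 6 differed by between -0.20 and -0.016. Gzmb, the last of the row and a protease of cytotoxic cells, read 10.42 and 11.65 in Hif1a-/- cells, against 11.51 and 12.58 in WT cells. Its difference was -1.01 ± 0.47 (SE) with groups that overlapped, and as in Cma1 and the tryptases, replicate 1 was the lower array in both genotypes. Among 8 measured genes of this locus outside the family, 7 had a lower and 1 a higher mean, 4 had groups that did not overlap in the lower direction (9.05% of all genes), and the median difference was -0.078. These 4, Gzme, Gzmd, Gzmg and Gzmf, differed by only -0.12 to -0.016.

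On chromosome 17, Tpsg1, the transmembrane tryptase gene beside Tpsb2, read 9.11 and 9.24 in Hif1a-/- cells, against 9.56 and 9.81 in WT cells. The groups did not overlap, and the difference was -0.51 ± 0.14 (SE), with a limma p of 0.0106 before and 0.999 after adjustment. The other 9 measured serine protease genes of the tryptase list, from Prss21 to Prss41, differed by between -0.017 and 0.19, and the median over the list of 10 was 0.11. Prss28 and Prss29, which lie between Prss34 and Tpsab1, differed by 0.18 and 0.13. Lower values were thus found in neighbours Tpsab1, Tpsb2 and Tpsg1 and not at the other end of the measured row.

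**Figure D3:**
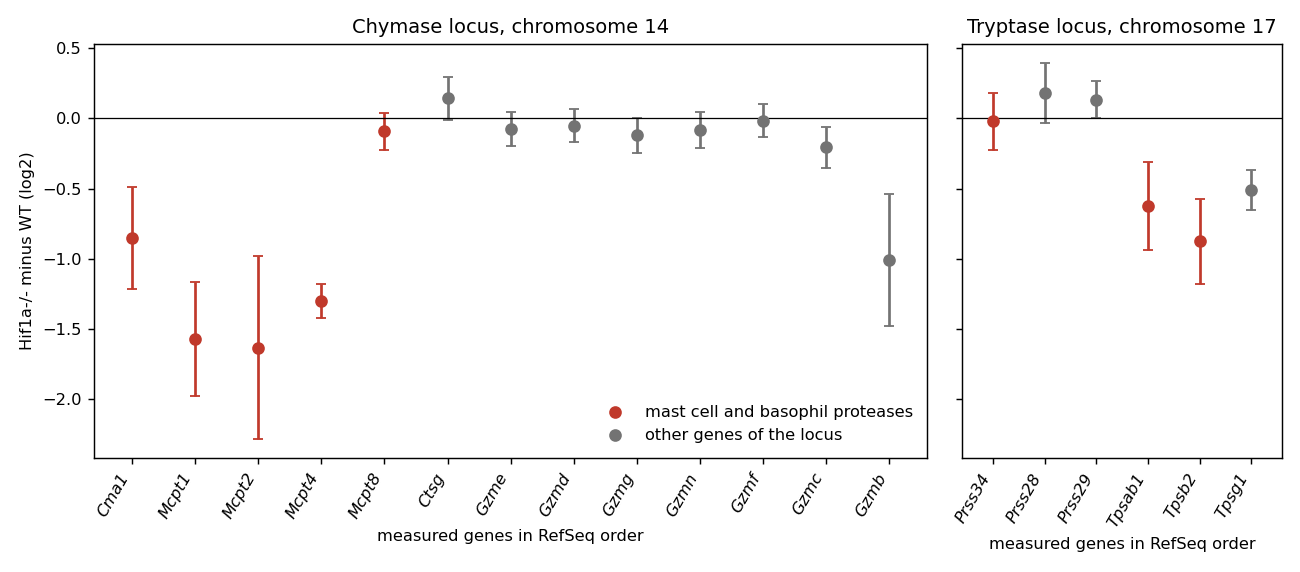
Difference (log2, Hif1a-/- minus WT) of each measured gene in RefSeq order along the chymase locus of chromosome 14 and the tryptase locus of chromosome 17, with error bars of 1 SE from limma, the mast cell and basophil proteases in red and neighbours in grey. Cma1, Mcpt1, Mcpt2 and Mcpt4 lie between -1.63 and -0.85 beside Mcpt8 and Ctsg near 0, and Tpsab1, Tpsb2 and Tpsg1 lie between -0.87 and -0.51.

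Genes that process and store granule proteases differed in both directions. Ctsc, the dipeptidyl peptidase that activates chymases and granzymes, read 11.62 and 11.78 in Hif1a-/- cells, against 11.93 and 11.98 in WT cells, a difference of -0.26 ± 0.13 (SE). Srgn, the serglycin core protein that holds the proteases in the granule, read 13.77 and 13.83 in Hif1a-/- cells, against 14.02 and 13.90 in WT cells, a difference of -0.16 ± 0.12 (SE). In both, the groups did not overlap, by little in Srgn. Ctse, an aspartic protease of the endosomal system, went the other way, with 11.63 and 11.35 in Hif1a-/- cells, against 10.98 and 10.78 in WT cells, a difference of 0.61 ± 0.15 (SE) and an unadjusted limma p of 0.00592. Ctsl, a lysosomal cysteine protease, differed by 0.35. Of the 10 measured genes of this list, 6 had a lower and 4 a higher mean, with a median of -0.020.

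Among 7 measured protease inhibitors, all had a lower mean in Hif1a-/- cells (38.6% of all genes), with a median of -0.15. In 2 the groups did not overlap (9.05% of all genes in that direction). Lxn, latexin, the inhibitor of metallocarboxypeptidases such as Cpa3, read 9.60 and 10.02 in Hif1a-/- cells, against 10.20 and 10.47 in WT cells. Its difference was -0.53 ± 0.18 (SE), with a limma p of 0.0256 before and 0.999 after adjustment. Replicate 1 was again the lower array in both genotypes. Serpinb6a, Serpinb9 and Serpinb1a, intracellular inhibitors of serine proteases, differed by -0.23, -0.17 and -0.15.

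The receptors, mediator enzymes and transcription factors of mast cells and basophils mostly differed little between the genotypes, and the contrast with the proteases was not tested. These lists hold genes shared with basophils or with other cells of the gate, such as Kit and Spi1, so they do not single out mast cells. Over 35 measured genes of these 2 lists, 24 had a lower and 11 a higher mean (38.6% and 61.4% of all genes). In 3 both Hif1a-/- arrays lay below and in 4 both above the WT arrays, against 9.05% and 15.7% of all genes. The median difference was -0.087, where the proteases had -0.85. The sign of that median rested on WT replicate 1, without which it was 0.065. Fcer1a and Ms4a2, subunits of the high-affinity IgE receptor, differed by -0.12 and -0.17, and Hdc, the enzyme that makes histamine, by -0.13, all with groups that overlapped. Kit differed by 0.087. Slc18a2, the transporter that loads amines into granules, and Ddc, an amine-forming decarboxylase, differed by -0.29 and -0.33, and of these only Ddc had groups that did not overlap. Mitf, the transcription factor that drives many mast cell genes, read 8.55 and 9.02 in Hif1a-/- cells, against 8.91 and 9.20 in WT cells, and differed by -0.27 ± 0.20 (SE). Gata2, required for mast cells and basophils, differed by -0.025 ± 0.16 (SE). Cebpa and Spi1, regulators of myeloid fate, differed by -0.31 and -0.22.

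One gene of the mediator list, Tph1, differed nearly as much as Mcpt4. Tph1, the enzyme of serotonin synthesis in mast cells, read 8.90 and 11.17 in Hif1a-/- cells, against 10.59 and 11.83 in WT cells. It was singled out after its values were seen, its groups overlapped, and its difference was -1.18 ± 0.73 (SE) with an unadjusted limma p of 0.153. Hif1a-/- replicate 1 was the lowest array, and replicate 1 was the lower array in both genotypes.

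The proteases did not share 1 order of the WT arrays. Mcpt8 and Prss34 read higher on WT replicate 1 than on WT replicate 2, by 0.18 and 0.58, and so did Fcer1a by 0.67, Ms4a2 by 0.49 and the basophil receptor gene Cd200r3 by 1.13. WT replicate 1 is the array with high and WT replicate 2 the array with low mature neutrophil genes. Of the mast cell proteases, Mcpt1 and Mcpt2 also read higher on WT replicate 1, by 0.41 and 0.059, while Cma1, Tpsb2 and Tpsab1 read lower there, with differences of -0.72, -0.52 and -0.78, and Mcpt4 and Cpa3 read within 0.047 and 0.0022 of each other on the WT arrays. These genes were set side by side after their values were seen.

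The genes whose values followed the mean of the 9 proteases most closely over the 4 arrays came from outside the family. After each gene was centred on its own mean, the mean of the 9 lay at -0.78 and -0.032 on the Hif1a-/- arrays, against 0.36 and 0.45 on the WT arrays. By root mean square distance from these 4 values, the nearest were Ccr2 (0.073), a chemokine receptor of monocytes, Tmtc2 (0.12), Anpep (0.13), which encodes aminopeptidase N, P2ry10b (0.13) and Sema7a (0.13), a semaphorin. Of the proteases themselves, Tpsb2 (0.16) and Cma1 (0.24) lay nearest to their common mean and Mcpt2 (0.69) and Prss34 (0.55) farthest. With 4 arrays many genes can take a like order by chance alone.

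The lineage-negative, c-Kit-positive gate is meant to remove mature monocytes, dendritic cells and erythroid cells, but the means of some of their genes differed between the genotypes. Of 10 monocyte and dendritic cell genes, 8 averaged lower in Hif1a-/- cells (38.6% of all genes). In 4 the groups did not overlap in that direction (9.05% of all genes), and the median difference over the 10 genes was -0.41. Their summed level, as log2, was 12.33 and 12.67 in Hif1a-/- cells, against 12.85 and 13.10 in WT cells, the same order of arrays as in Tpsb2. Ccr2 differed by -0.87, Xcr1, a receptor of cross-presenting dendritic cells, by -0.82, and Irf8, their transcription factor, by -0.59. All 7 measured erythroid genes had a higher mean in Hif1a-/- cells (61.4% of all genes), 6 with groups that did not overlap (15.7% of all genes in that direction). Their median was 0.57, with a summed level of 14.83 and 14.35 in Hif1a-/- cells, against 14.13 and 13.90 in WT cells. Hif1a-/- replicate 1, the array with the lowest mast cell proteases, was thus the array with the highest erythroid and the lowest monocyte and dendritic cell sum. The part of these cell types in the differences of the proteases was not tested.

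The remaining lists, apart from the hypoxia response genes, lay closer to 0. The median difference was 0.15 over 5 azurophil granule genes, among them Elane (0.15), 0.25 over 4 eosinophil genes, -0.090 over 10 mature neutrophil genes, 0.054 over 11 cytotoxic cell genes, 0.18 over 7 megakaryocyte genes, -0.098 over 8 B cell genes, -0.017 over 10 stromal and endothelial genes and -0.11 over 10 genes of the gate and of stem cells. The azurophil proteases are serine proteases like the chymases. All 5 measured genes of that list averaged higher in Hif1a-/- cells (61.4% of all genes), with groups that overlapped. Of 12 genes of the hypoxia response, 11 had a lower mean (38.6% of all genes), 8 with groups that did not overlap (9.05% of all genes in that direction). Their median was -0.38, near the median of -0.41 over the monocyte and dendritic cell genes. Bnip3, which encodes a mitochondrial protein, differed by -1.29, as much as Mcpt4.

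**Figure D4:**
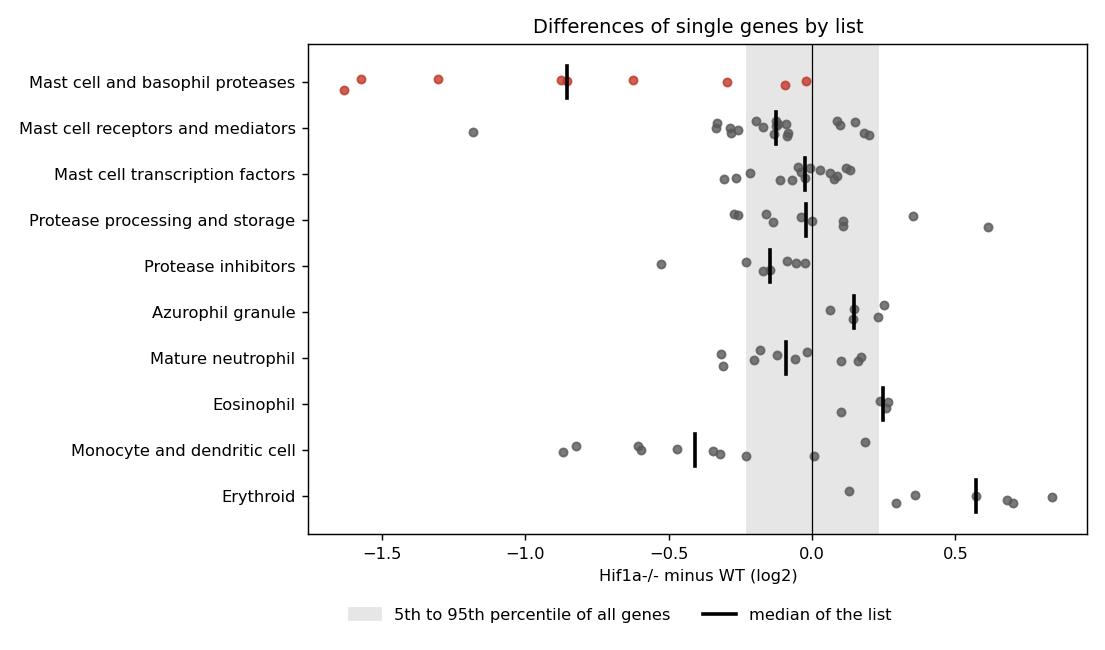
Difference (log2, Hif1a-/- minus WT) of single genes by list, each point a gene, with the list's median as a black line and the range from the 5th to the 95th percentile of all genes (-0.23 to 0.23) in grey. Most of the proteases lie left of that range with a median of -0.85, while the medians of mast cell receptors and mediators and of transcription factors lie at -0.13 and -0.025.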

How the data were processed

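Expression was measured in 4 samples on Affymetrix whole-transcript arrays. The authors deposited log2 expression values of 35556 probe sets, made with Affymetrix Expression Console 1.1 and RMA per the submitters' processing notes; further settings and a genome build: not given in the sources used here. RMA draws differences of dim genes together and scales out changes in total RNA. Groups follow the genotype in the sample titles, and 0 columns were left unused.

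Probe sets with 1 symbol in the platform annotation (21789, against 1621 with several and 12146 unnamed here) were kept, the one with the highest mean per gene, which left 19938 genes. RefSeq (GRCm38.p6) held 19856 of them. Genes were fitted with limma 3.58.1 in R 4.3.3 (lmFit and eBayes, genotype only, 2 residual and 4.46 prior degrees of freedom), with Benjamini-Hochberg adjustment over all genes at 0.05. The procedure was tested on simulated data. All 9 proteases passed a filter at the 25th percentile of mean expression and 6 one at the median, 8.55, which leaves out Mcpt1, Mcpt2 and Tpsab1.

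The members and gene lists were chosen with earlier results of these data known. Named genes are the 9 proteases, a fixed set of mast cell genes, up to 4 genes per list with the smallest p, locus genes differing by 0.5 or more and the 5 nearest in pattern; Xist, Eif2s3y, Tph1 and Cd200r3 were named after their values were seen. Same-numbered replicates were checked for pairing: their deviations correlated at -0.0072 across genes, and the labels name no pairs, so the numbers were not treated as pairs. A correlation over all genes cannot exclude shared handling that touched some genes. Alternatives were filters, normalization, variance priors, probe set means, a replicate block and each array left out. The number of arrays limits the precision.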

Additional observations from a re-analysis of the deposited data

How the results depend on the processing

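All 9 proteases kept a negative difference in every alternative run except Prss34, which was 0.044 after a second quantile normalization, 0.032 without Hif1a-/- replicate 2, and between -0.31 and 0.27 over the fits that left out an array (0.27 without WT replicate 1). The median over the measured proteases ran from -1.30 without Hif1a-/- replicate 2 to -0.35 without Hif1a-/- replicate 1. The count with both Hif1a-/- arrays below both WT arrays ran from 5 to 8 when an array was left out (8 without Hif1a-/- replicate 2). Leaving out an array can only keep or raise this count, so that range does not test it. The count was 3 under a filter at the median of expression, where only 6 proteases were tested. With every array in, it was 7 after the array medians were centred. In the main run Cma1 overlapped by little, with 9.972 on Hif1a-/- replicate 2 against 9.962 on WT replicate 1. So did Mcpt8, with 13.9004 on Hif1a-/- replicate 2 against 13.8971 on WT replicate 2. The count of 5 thus depends on small shifts between arrays. The median of the other mast cell and basophil genes ran from -0.20 without WT replicate 2 to 0.065 without WT replicate 1. Genes passing limma's adjusted p of 0.05 numbered 0 in the design as planned, 1 with a variance trend (Sva), 2 with a robust trend (Sva and Mcpt4, adjusted p 0.0317), and from 2 to 1442 with an array left out, fits with 1 residual degree of freedom that assume the lone array varies like the other group. The replicate block gave 47 genes, 5 of them proteases (Cma1, Mcpt1, Mcpt2, Mcpt4 and Tpsb2), but the labels name no pairing of the numbers. That fit has 1 residual degree of freedom, and limma then gave every gene a common variance. The differences themselves did not move. Over the alternatives run, the adjusted limma p of Mcpt4 ranged from 3.28e-07 to 0.679. Array number, and RMA's compression of dim probe sets such as Mcpt1, limit what can be read from the sizes.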
